A study of Mus musculus with 17 samples.

Results

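The samples described here are the 3 libraries labelled dTgDox and the 6 labelled Ct, 9 of the 17 deposited, each made from polyadenylated RNA of the frontal cortex of a male FVB/N mouse. The libraries were taken by these labels. The dTgDox mice had the genotype dTg-211, which the labels pair with doxycycline for 4 days. The Ct mice had the genotype CamK, the driver transgene alone, and no doxycycline. The labels give no age, litter or day. Nothing in them says how the libraries of a group are related beyond being separate samples, so the p-values measure the spread between these samples. No Ct mouse given doxycycline was analysed here, so an effect of the drug and an effect of the second transgene cannot be told apart in this comparison.

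A CamK driver takes its promoter from the gene of the calcium/calmodulin kinase Camk2a, which is active mainly in excitatory neurons of the forebrain. In a Tet-off system the driver makes a transactivator that turns on a second transgene, and doxycycline keeps the transactivator from binding it. The gene of miR-211, Mir211, sits inside Trpm1, in 1 of its introns, and the title of the series links its forebrain level with cholinergic imbalance and seizure-like activity. A microRNA lowers messenger RNAs that pair with its seed, bases 2 to 8 counted from its 5′ end. The mature miR-211-5p of the mouse (RefSeq, GRCm38.p6, chr7:64205831-64205852, plus strand) is shown because the second transgene is named for it, with the seed in capitals.
mmu-miR-211-5p: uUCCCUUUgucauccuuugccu
Libraries of polyadenylated RNA do not measure a mature microRNA. None of the 9 libraries had a value above 0 for Mir211. Trpm1, its host gene and a cation channel, lay between 0.141 and 0.262 FPKM in the 3 dTgDox libraries and between 0.0375 and 0.398 FPKM in the 6 Ct libraries, too low to be tested. Camk2a itself had 760, 658 and 723 FPKM in dTgDox replicates 1 to 3, against 602 to 917 FPKM (median 746) in Ct. The groups overlapped at Camk2a, and the log2 difference was -0.07 (SE 0.12, limma adjusted p = 0.72).

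FPKM counts fragments per kilobase of transcript, scaled to the reads mapped in a library. Each difference below is dTgDox minus Ct on the log2(FPKM + 0.5) scale, given with its SE (standard error), and it understates the change of genes near 0. A gene passed the test where the limma p-value, adjusted by the Benjamini-Hochberg method over all genes tested, was under 0.05. Of 18426 genes tested, 3419 (18.6%) passed, 1729 (9.38%) of them higher in dTgDox and 1690 (9.17%) lower. The median difference over all genes was -0.01. Leaving out 1 library at a time left 1783 to 3119 genes, with 1783 without dTgDox replicate 1 and 1814 without replicate 3. Estimated depth was 23.7, 28.1 and 23.9 M reads in dTgDox and 22.3 to 30.4 M reads in Ct. Across genes, the correlation of log2 values was 0.966 to 0.970 between dTgDox libraries, 0.957 to 0.967 between Ct libraries and 0.939 to 0.954 between the groups. The first principal component held 29.2% of the variance, with dTgDox at -36.6 to -47.4 and Ct at 13.6 to 32.7.

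Markers of hippocampal neurons were among the genes that differed most in level. The hippocampus lies beneath the neocortex, and its CA pyramidal cells and dentate granule cells express genes that neocortical neurons express little. Of 23 CA pyramidal cell markers tested (of 24 listed), 16 were higher in dTgDox and 1 was lower, and their median difference was 1.71. The mean log2(FPKM + 0.5) of that list was 4.80 to 4.85 in the dTgDox libraries, against 3.08 to 3.28 in the Ct libraries. Of 22 dentate granule cell markers, 13 were higher and 2 lower, with a median of 0.74 and list levels of 3.54 to 3.57 in dTgDox and 2.60 to 2.74 in Ct. Leaving out 1 library at a time kept 16 to 17 CA markers and 10 to 13 dentate markers higher. The label of every library names frontal cortex, and the dTgDox libraries held these hippocampal markers at levels that no Ct library reached. Nor did dTg replicates 2 to 7, double transgenics without doxycycline, with CA list levels of 3.035 to 3.32 and dentate list levels of 2.54 to 2.81.

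Spink8, a secreted protease inhibitor of the Kazal type that marks CA1 pyramidal cells (chr9:109812280-109826633, GRCm38), had 60.01, 43.1 and 38.2 FPKM in dTgDox, against 0.989 to 3.77 FPKM (median 2.45) in Ct. Its difference was 4.11 (SE 0.30, limma adjusted p = 4.9e-05). Cabp7, a neuronal calcium-binding protein (chr11:4736892-4746778), had 91.7, 86.8 and 108 FPKM in dTgDox, against 4.17 to 8.08 FPKM in Ct, a difference of 3.89 (SE 0.18). Fibcd1, a membrane receptor that binds acetylated sugars (chr2:31813290-31846005), had 25.1, 23.4 and 25.9 FPKM in dTgDox, against 1.78 to 3.11 FPKM in Ct. In each of these genes all 3 dTgDox libraries lay far above all 6 Ct libraries. Nr3c2, the mineralocorticoid receptor, had 24.9, 29.0 and 27.1 FPKM in dTgDox, against 8.04 to 9.62 FPKM in Ct, a difference of 1.56 (SE 0.08). Klk8, a secreted serine protease, differed by 2.52, Lefty1, a secreted TGF-beta family antagonist, by 3.15, Shisa6, an AMPA receptor partner, by 2.83, and Npy2r, a neuropeptide Y receptor, by 3.03. Tyro3, a receptor tyrosine kinase, was the member that was lower, with 34.8, 44.7 and 29.7 FPKM in dTgDox, against 61.1 to 92.7 FPKM in Ct.

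Among the dentate markers, C1ql2, a secreted synaptic organiser of mossy fibres (chr1:120340582-120343174, GRCm38), had the largest difference among the genes named by rule. It had 40.6, 17.4 and 34.0 FPKM in dTgDox, against 0.152 to 1.03 FPKM (median 0.213) in Ct, a difference of 5.20 (SE 0.32, limma adjusted p = 1.8e-05). Prox1, the homeobox factor that specifies granule cells (chr1:190118035-190170714), had 10.1, 11.3 and 9.73 FPKM in dTgDox, against 1.58 to 1.85 FPKM in Ct, a difference of 2.29 (SE 0.09). All dTgDox libraries lay well above all Ct libraries at C1ql2 and Prox1. Il16, a cytokine precursor, differed by 2.88 and Lct, the lactase gene, by 2.72. The lower members were Pdzd2, at -0.89, and Marcks, an actin-binding substrate of protein kinase C, at -0.52. Calb1, the calcium buffer calbindin, did not pass (difference -0.15). In bulk RNA, more or fewer cells of a type and more or less RNA per cell cannot be told apart, here and in every list below.

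**Figure D1:**
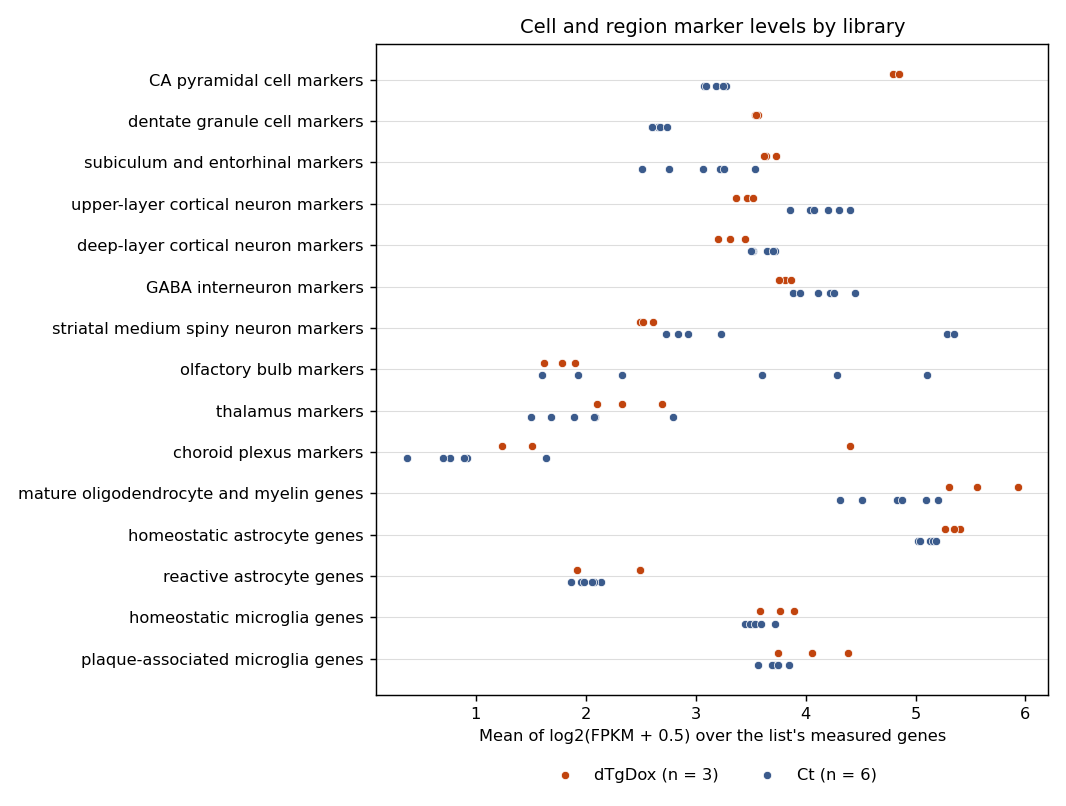
Mean log2(FPKM + 0.5) of marker lists in each library, with the 3 dTgDox libraries drawn above the 6 Ct libraries in each list and 1 point per library. The dTgDox points of the CA pyramidal list lie between 4.80 and 4.85, above all Ct points, while the striatal and olfactory bulb lists spread widely among the Ct libraries.

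Among markers of other neighbouring tissue, the striatal and olfactory bulb lists varied mostly within Ct, and the choroid plexus list mostly within dTgDox. Markers of striatal medium spiny neurons, the output cells of the striatum, had list levels of 2.49 to 2.61 in dTgDox and 2.73 to 5.35 in Ct, with Ct replicates 4 and 6 at 5.29 and 5.35. None of the 18 tested (of 20 listed) passed in limma, while 7 were lower at an unadjusted p under 0.05, and the median difference was -1.15. Olfactory bulb markers had levels of 1.62 to 1.91 in dTgDox and 1.60 to 5.11 in Ct, with Ct replicates 1, 5 and 2 the highest, and 1 of 14 tested was higher in dTgDox and 2 were lower. That share, 21.4%, was near the 18.6% over all genes tested. Meis2, a homeobox factor of olfactory bulb and striatal neurons, fell by 1.87 (limma adjusted p = 0.0036), with 27.7, 22.8 and 22.1 FPKM in dTgDox against 61.2 to 161 FPKM in Ct. The dTgDox libraries sat at the low end of both lists. Without the 3 Ct libraries richest in bulb markers 2542 genes passed, and without the 2 richest in striatal markers 2691. Choroid plexus markers, of the tissue that makes cerebrospinal fluid, had levels of 1.24 to 4.40 in dTgDox, with replicate 3 the highest, and 0.37 to 1.64 in Ct, and 2 of 12 tested were higher. Here 16.7% passed, below the share over all genes tested. Ttr, the thyroxine carrier transthyretin, had 18.3, 38.4 and 1907 FPKM in dTgDox, against 0.661 to 86.7 FPKM (median 1.76) in Ct, and did not pass (limma adjusted p = 0.11). Kl, the ageing-related membrane protein klotho, had 3.78, 4.30 and 16.8 FPKM in dTgDox, against 0.300 to 1.07 FPKM in Ct, a difference of 2.78 (SE 0.41). Lhx9, a LIM homeobox factor of the thalamus, had 3.74, 3.09 and 3.94 FPKM in dTgDox, against 0.0295 to 1.41 FPKM in Ct, a difference of 2.47. Of 11 thalamus markers 4 were higher and 1 lower, a share of 45.45% against 18.6% over all genes tested, and 2 were higher without dTgDox replicate 3.

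Markers of the cortical layers themselves were present in every library and many were lower in dTgDox. Upper-layer neurons connect cortical areas with each other, and deep-layer neurons project out of the cortex. Of 18 upper-layer markers 10 were lower and 0 higher (1 at an unadjusted limma p under 0.05), with a median of -0.77 and list levels of 3.37 to 3.52 in dTgDox and 3.86 to 4.40 in Ct. The count was 6 without dTgDox replicate 3. Mef2c, a transcription factor that shapes synapse number, had 46.7, 43.2 and 34.4 FPKM in dTgDox, against 152 to 253 FPKM (median 172) in Ct. It differed by -2.14 (SE 0.16, limma adjusted p = 4.2e-05), and every dTgDox library lay below every Ct library. Stard8, a GTPase-activating protein, had 2.49, 2.84 and 3.01 FPKM in dTgDox, against 10.1 to 17.9 FPKM in Ct, a difference of -2.13 (SE 0.20). Cux1 differed by -0.84 and its relative Cux2 did not pass, with 8.42, 30.4 and 7.50 FPKM in dTgDox against 16.2 to 35.8 FPKM in Ct. At Cux2 dTgDox replicate 2 lay within the Ct range and the other 2 lay below it.

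Of 22 deep-layer markers 8 were lower and 3 higher, and their median difference was -0.02. Tbr1, a T-box factor of layer 6 neurons, had 20.1, 24.0 and 14.4 FPKM in dTgDox, against 37.8 to 60.7 FPKM (median 43.0) in Ct, a difference of -1.19 (SE 0.17, limma adjusted p = 0.0017). Pcp4, a calmodulin-binding peptide, differed by -1.26, and Scube1, a secreted EGF-repeat protein, by -1.86. Hs3st4, a heparan sulfate sulfotransferase, rose by 1.19, and it stands in the CA list as well. Of 24 interneuron markers 4 were lower and 1 higher, a share of 20.8%, near the 18.6% over all genes tested. Npy, the peptide neuropeptide Y, had 65.1, 82.1 and 56.0 FPKM in dTgDox, against 131 to 190 FPKM in Ct, a difference of -1.26 (SE 0.14). Vip, a peptide of disinhibitory interneurons, differed by -1.01, Tac2, the precursor of neurokinin B, by -1.03, and Nos1, the neuronal nitric oxide synthase, by 0.86. Of 20 genes used by all neurons 3 were lower, Tubb3 (-0.53), Syt1 (-0.34) and Syn1 (-0.44). Without any 1 of the dTgDox libraries Tubb3, a neuronal tubulin, was the only one of the 3 that passed. The levels of the pan-neuronal list overlapped, at 7.71 to 7.86 in dTgDox and 7.81 to 8.07 in Ct. The upper-layer and deep-layer lists were lower in level in the libraries in which the hippocampal markers were high, and the part of that difference in these lists was not tested.

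App and Prnp, a pair of membrane proteins of neurons, were both higher in dTgDox than in Ct. App encodes the amyloid precursor protein, which secretases cut to release amyloid-beta, and Prnp encodes the prion protein. App (chr16:84949685-85173766, GRCm38) had 1268, 961 and 904 FPKM in dTgDox, against 428 to 581 FPKM (median 472) in Ct. The means were 1044 ± 196 FPKM in dTgDox (SD, n = 3) and 478 ± 55.4 FPKM in Ct (SD, n = 6), a difference of 1.12 (SE 0.12) with a limma adjusted p of 0.00031. Prnp (chr2:131909928-131938429) had 1688, 1208 and 1095 FPKM in dTgDox, against 356 to 473 FPKM (median 396) in Ct. Its means were 1330.0 ± 315 FPKM in dTgDox (SD, n = 3) and 404 ± 41.3 FPKM in Ct (SD, n = 6), a difference of 1.70 (SE 0.13) with a limma adjusted p of 5.1e-05. All dTgDox libraries lay above all Ct libraries in both genes, and replicate 1 was the highest and replicate 3 the lowest in both. In the double transgenics without doxycycline (dTg replicates 2 to 7), App lay at 438 to 581 FPKM and Prnp at 364 to 451 FPKM. A deposited value sums all reads given to a gene, so transcripts of the gene itself and others that share its sequence cannot be told apart in these FPKM. With 1 library left out, the App difference was 0.97 to 1.22 and the Prnp difference 1.52 to 1.83.

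**Figure D2:**
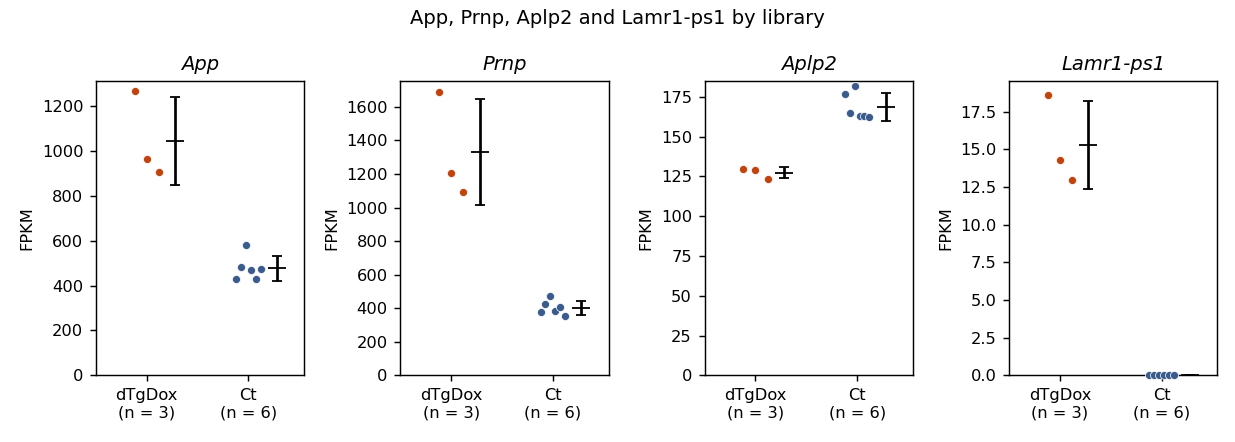
FPKM of App, Prnp, the App relative Aplp2 and the pseudogene Lamr1-ps1 in each library, with the 3 dTgDox libraries left of the 6 Ct libraries, 1 point per library and the mean ± SD beside them. App spans 904 to 1268 FPKM in dTgDox and 428 to 581 FPKM in Ct, Prnp spans 1095 to 1688 FPKM in dTgDox and 356 to 473 FPKM in Ct, and Aplp2 is lower in dTgDox.

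Of the listed genes next to App and Prnp on the chromosome, none that passed differed by as much as App or Prnp. The pseudogene Lamr1-ps1, near Prnp but not on that list and described below, differed by more than either. Of 7 tested neighbours of App 1 was higher, Gabpa, an ETS-family transcription factor, by 0.43 (SE 0.10), and this call was lost without any 1 of the dTgDox libraries (limma adjusted p of 0.0589 to 0.0735). That share, 14.3%, was below the 18.6% over all genes tested. Of 8 tested neighbours of Prnp 2 were higher, Rassf2 by 0.31 and Smox, a polyamine oxidase, by 0.45, and neither passed without dTgDox replicate 1 or 2. The vitamin C transporter gene Slc23a2 was lower, with 28.5, 27.9 and 29.0 FPKM in dTgDox against 43.8 to 63.7 FPKM in Ct, a difference of -0.78 (SE 0.11). Sprn, the prion protein relative shadoo, had 72.2, 70.7 and 68.5 FPKM in dTgDox, against 68.9 to 99.6 FPKM in Ct, and did not pass (-0.19). The gene with the smallest p of all, Lamr1-ps1, chosen after its values were seen, is a processed pseudogene that ends 4968 bases before the start of Prnp (chr2:131904086-131904959). It had 18.6, 14.3 and 12.99 FPKM in dTgDox and was listed at 0 in every Ct and every dTg library. Replicate 1 was the highest and replicate 3 the lowest, as at Prnp. Whether its reads come from this locus or from near-identical copies was not tested.

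Of 31 genes of the APP family, the secretases and amyloid-beta handling, 3 were higher and 4 lower, with a median of 0.00. Together 22.6% passed, against 18.6% over all genes tested. Without Ct replicate 1 the counts were 5 and 2, and without dTgDox replicate 1 or 3 they were 3 and 1. Bace1, the beta-secretase, differed by 0.02 (SE 0.07) and Aplp1, an APP relative of neurons, by 0.00 (SE 0.06), with overlapping groups. Aplp2, the other APP relative measured, was lower, with 130, 129 and 123 FPKM in dTgDox against 162 to 182 FPKM in Ct, a difference of -0.40 (SE 0.06). Ncstn, the gamma-secretase subunit nicastrin, was lower by a difference of -0.28, and Apbb1, an adaptor that binds the APP tail, by -0.37. Sorl1, a sorting receptor for APP, differed by -0.48. The calls of Ncstn, Apbb1 and Sorl1 were each lost without dTgDox replicate 1 or 3, at limma adjusted p of 0.0695 to 0.169, and those of Ncstn and Sorl1 also without Ct replicate 1. Itm2b, a membrane protein that binds APP, rose by 0.44 and passed in each of the 9 fits that left 1 library out. Mapt, which encodes tau, did not pass (-0.17).

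A few astrocyte genes that are known to rise around damage were higher in dTgDox, Gfap and Serpina3n among them, while most of the reactive astrocyte genes tested did not pass. Astrocytes and microglia respond to injury and to amyloid deposits, astrocytes by making more intermediate filament and microglia by turning on a lysosomal and lipid-handling programme. Gfap, the astrocyte intermediate filament (chr11:102887336-102900912, GRCm38), had 276, 127 and 204 FPKM in dTgDox, against 19.0 to 49.0 FPKM (median 27.5) in Ct. Its difference was 2.63 (SE 0.34, limma adjusted p = 0.0015), and the lowest dTgDox library lay above the highest Ct library. Serpina3n, a secreted protease inhibitor of reactive astrocytes, had 43.0, 27.5 and 42.8 FPKM in dTgDox, against 4.45 to 10.3 FPKM (median 6.62) in Ct, a difference of 2.41 (SE 0.24). Of 30 reactive astrocyte genes tested (of 39 listed) 4 were higher, Gfap, Serpina3n, Cd109 (1.36) and Fkbp5 (0.81), and the median was 0.06. The share that passed, 13.3%, was below the 18.6% over all genes tested. None was lower in limma, and 2 were lower at an unadjusted p under 0.05. Vim, the other intermediate filament of reactive astrocytes, did not pass (0.31). Of 28 homeostatic astrocyte genes 11 were higher and 1 lower, with a median of 0.16, and 4 were higher without dTgDox replicate 1 and 7 without replicate 3. Among them Slc14a1, a urea transporter, differed by 1.36, Cldn10, a claudin, by 0.55 and Ppp1r3c, a glycogen-targeting subunit, by 0.56. Aqp4, the water channel of astrocyte endfeet, had overlapping groups and lost its call without any 1 of 6 libraries, among them dTgDox replicates 1 and 3.

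Of 42 plaque-associated microglia genes tested (of 49 listed) 14 were higher and 3 lower in dTgDox, with a median of 0.26. The list level was 4.38, 3.75 and 4.06 in dTgDox replicates 1 to 3, against 3.57 to 3.85 in Ct, so replicate 2 lay within the Ct range. Without dTgDox replicate 1, or without replicate 3, 6 members were higher, and without replicate 2 there were 17. The lower members were Cox6a2 (-1.32), Cd34 (-0.74) and Kcnj2 (-0.57), of which 1 passed without dTgDox replicate 1 or Ct replicate 2. Lpl, lipoprotein lipase, had 19.9, 19.0 and 17.8 FPKM in dTgDox, against 1.91 to 6.86 FPKM (median 3.58) in Ct, a difference of 2.15 (SE 0.33, limma adjusted p = 0.0025). Fth1, the ferritin heavy chain, had 2184, 2626 and 2171 FPKM in dTgDox, against 1089 to 1626 FPKM in Ct, a difference of 0.82. Lpl and Fth1 are not made by microglia alone, and neither followed the order of the 3 dTgDox libraries seen in the list. Cd9, a tetraspanin, differed by 0.84 and Lgals3, galectin-3, by 1.12. The next genes were chosen after their values were seen, because they are specific to microglia or myeloid cells. Cst7, an inhibitor of lysosomal cathepsins, had 13.1, 1.29 and 4.86 FPKM in dTgDox, against 0.0445 to 0.335 FPKM in Ct, a difference of 2.88 (SE 0.50, limma adjusted p = 0.0048). Clec7a, a receptor for fungal beta-glucan, had 4.33, 0.506 and 1.12 FPKM in dTgDox, against 0 to 0.362 FPKM in Ct (limma adjusted p = 0.037). Trem2, a lipid-sensing receptor, had 25.5, 12.3 and 15.5 FPKM in dTgDox, against 9.28 to 12.2 FPKM in Ct (limma adjusted p = 0.044). In Cst7, Clec7a and Trem2 the highest library was dTgDox replicate 1 and the lowest dTgDox library was replicate 2. Clec7a and Trem2 each lost their call without any 1 of the 6 Ct libraries, at limma adjusted p of 0.0511 to 0.0743, and Cst7 kept it in all 9 such fits. Tyrobp, the signalling partner of Trem2, had 84.6, 29.96 and 46.6 FPKM in dTgDox, against 21.99 to 33.9 FPKM in Ct, and did not pass.

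**Figure D3:**
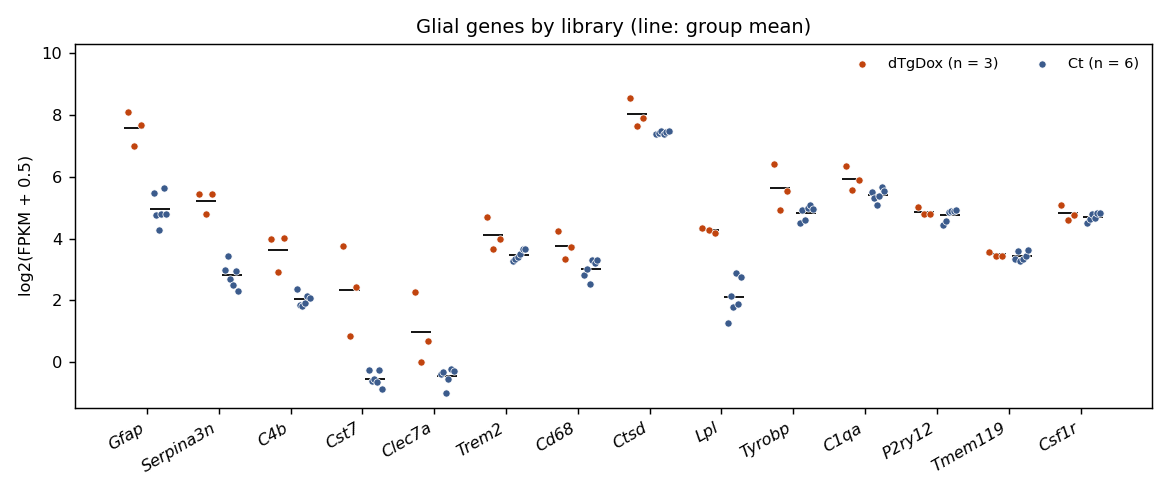
log2(FPKM + 0.5) of glial genes in each library, with the 3 dTgDox libraries left of the 6 Ct libraries, 1 point per library and the group mean as a line. In FPKM, Gfap lies between 127 and 276 in dTgDox and between 19.0 and 49.0 in Ct, and Cst7 spreads between 1.29 and 13.1 among the dTgDox libraries.

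Of 25 homeostatic microglia genes, those of resting cells, 4 were higher and 1 lower, with a median of 0.18, where 18.6% of all genes tested passed, and 2 were higher without dTgDox replicate 1 or 3. P2ry12 (0.10), Tmem119 (0.05) and Csf1r (0.11), the purine receptor, surface protein and growth factor receptor that define these cells, did not pass. Slc2a5, a fructose transporter, was lower, with 0.387, 1.31 and 1.44 FPKM in dTgDox against 2.12 to 3.98 FPKM in Ct. Of 19 complement genes 3 were higher, C4b by 1.61, Clu by 0.41 and C4a by 0.76, and 5 were higher without Ct replicate 5 or dTgDox replicate 2. With no library left out, 15.8% passed, below the 18.6% over all genes tested. C4b, complement component 4, had 15.3, 7.09 and 15.7 FPKM in dTgDox, against 3.06 to 4.66 FPKM (median 3.53) in Ct. C4a and C4b are near-identical copies, so the split between them is uncertain, and C4a lost its call without any 1 of the dTgDox libraries. None of 25 genes of MHC and antigen presentation passed in limma, with 2 higher and 2 lower at an unadjusted p under 0.05, and their median was 0.04. Of 29 interferon-induced genes 1 was higher and 2 were lower, a share of 10.3%, below the 18.6% over all genes tested. Of them 0 were lower without Ct replicate 3, 4 or 6 or dTgDox replicate 1 or 3.

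Myelin genes, made by oligodendrocytes, were higher in dTgDox in 14 of 27 cases, with a median of 0.81. None was lower in limma, at the adjusted threshold or at an unadjusted p under 0.05 (0 genes), and 24 were higher at that unadjusted threshold. The list level was 5.30, 5.93 and 5.56 in dTgDox, against 4.31 to 5.20 in Ct. The count rested on the choice of libraries. It was 1 without dTgDox replicate 2, 4 without dTgDox replicate 3, 8 without dTgDox replicate 1, and 7 or 8 without Ct replicate 1, 2 or 5. Without the 3 Ct libraries richest in olfactory bulb markers it was 0, and without the 2 richest in striatal markers it was 20. Mbp, myelin basic protein, had 1387, 2078 and 1482 FPKM in dTgDox, against 496 to 1079 FPKM in Ct (difference 1.03, limma adjusted p = 0.028). Its call was lost without Ct replicate 1 or any 1 of the dTgDox libraries. Ermn, an actin-binding protein of late oligodendrocytes, differed by 1.23. Of 28 endothelial and mural cell genes 1 was lower, Pdgfrb, the growth factor receptor of pericytes (-0.32), and it lost its call without any 1 of 7 libraries, the 3 of dTgDox among them. That share, 3.57%, was below the 18.6% over all genes tested. The glial genes that passed differed in the same libraries as the hippocampal markers, and the part of the hippocampal difference in them was not tested.

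**Figure D4:**
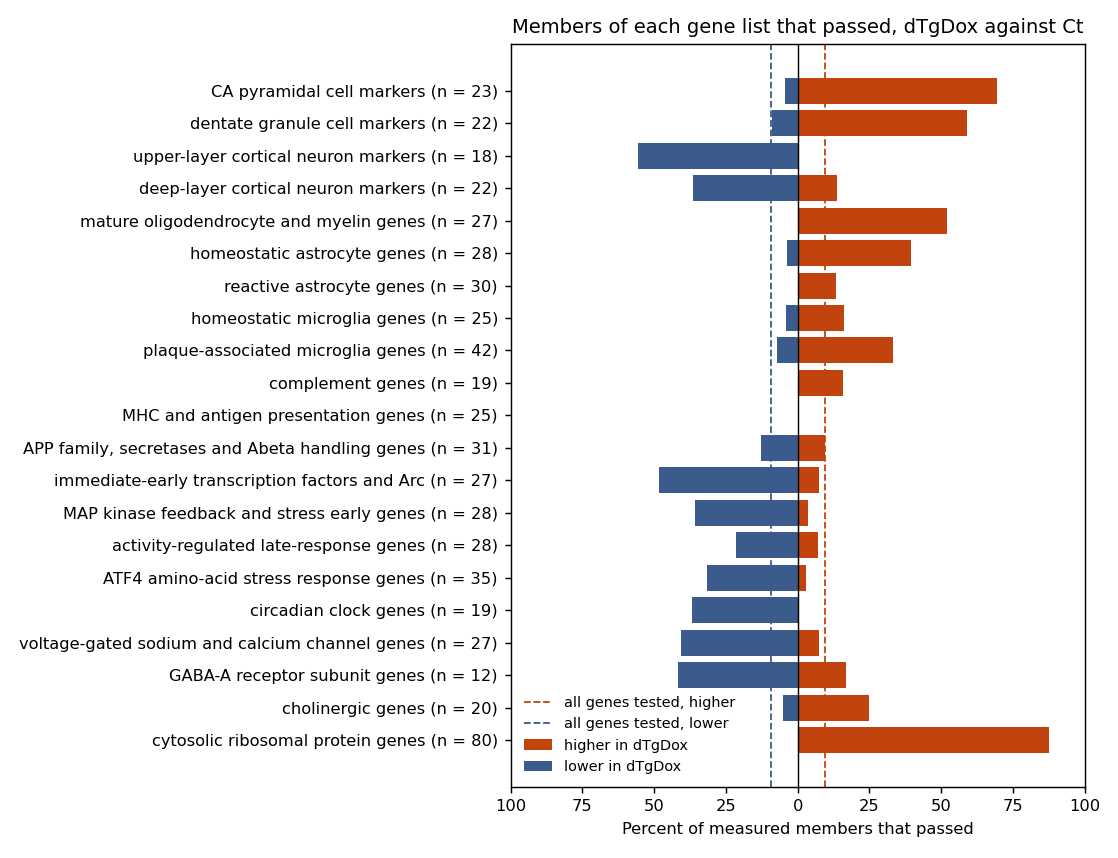
Percent of the tested members of each list that were higher in dTgDox (bars right of 0) or lower (bars left of 0) at a limma adjusted p under 0.05, with the percent over all genes tested as dashed lines. Of the CA pyramidal markers 16 of 23 were higher, of the immediate-early genes 13 of 27 were lower, and of the cytosolic ribosomal protein genes 70 of 80 were higher.

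Immediate-early genes are switched on by neurons within minutes of firing. Of 27 immediate-early transcription factor genes and Arc, 13 were lower in dTgDox, 2 were higher and 12 did not pass, with a median of -0.69 and list levels of 2.74 to 2.81 in dTgDox and 3.13 to 3.89 in Ct. Leaving out 1 library at a time gave 11 to 15 lower. In dTg replicates 2 to 7, without doxycycline, the list level was 2.79 to 4.34, so the lowest of them lay within the dTgDox range. Fos, a subunit of the AP-1 factor (chr12:85473890-85477273, GRCm38), had 4.73, 5.07 and 4.99 FPKM in dTgDox, against 11.6 to 42.1 FPKM (median 23.2) in Ct. Its difference was -2.14 (SE 0.32, limma adjusted p = 0.0028), and the Ct libraries spread far more than the dTgDox libraries. Egr1, a zinc-finger factor, had 21.1, 30.9 and 21.3 FPKM in dTgDox, against 78.0 to 130 FPKM (median 118) in Ct, a difference of -2.16 (SE 0.18, limma adjusted p = 9.7e-05). Arc, a synaptic protein that drives AMPA receptor uptake, had 20.9, 27.5 and 20.02 FPKM in dTgDox, against 49.1 to 111 FPKM in Ct, a difference of -1.73 (SE 0.25). Nr4a1, an orphan nuclear receptor, had 13.7, 17.0 and 14.5 FPKM in dTgDox, against 44.2 to 91.9 FPKM in Ct, a difference of -1.88 (SE 0.21). In Fos, Egr1, Arc and Nr4a1 no dTgDox library reached the lowest Ct library. Npas4, a factor that responds to calcium entry, had 1.64, 3.399 and 1.28 FPKM in dTgDox, against 4.58 to 17.7 FPKM in Ct. It differed by -2.16 (SE 0.43, limma adjusted p = 0.0099), and the call was lost without dTgDox replicate 3 (limma adjusted p = 0.0504). Egr2, a relative of Egr1, differed by -2.07.

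The list did not move as one. Jun, the AP-1 partner of Fos, had 29.7, 22.6 and 32.4 FPKM in dTgDox, against 11.3 to 18.0 FPKM (median 11.8) in Ct, a difference of 1.10 (SE 0.16, limma adjusted p = 0.0016). Nr4a3, a relative of Nr4a1, had 14.7, 13.5 and 16.8 FPKM in dTgDox, against 4.56 to 11.7 FPKM in Ct, a difference of 1.06. It lost its call without dTgDox replicate 1 or 3. Nr4a2, the third gene of that family, had 24.1, 22.5 and 22.6 FPKM in dTgDox, against 3.24 to 15.7 FPKM in Ct, and did not pass (1.40, limma adjusted p = 0.054). Thus 1 member of the Nr4a family was lower and another higher, and the same held for Fos and Jun. Bdnf, a growth factor induced by firing, had 11.2, 8.998 and 12.7 FPKM in dTgDox, against 5.35 to 10.3 FPKM in Ct, and did not pass (0.46).

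**Figure D5:**
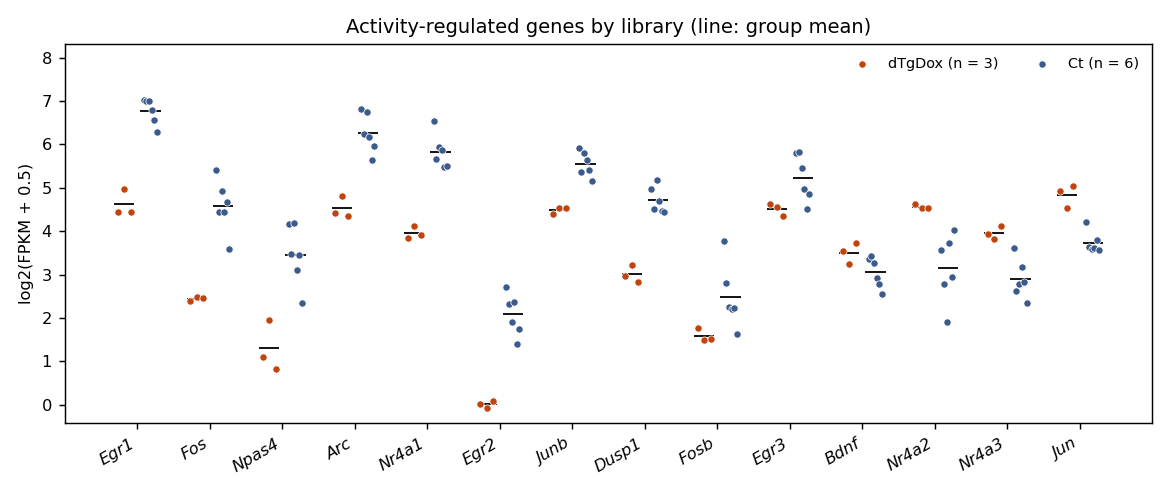
log2(FPKM + 0.5) of activity-regulated genes in each library, with the 3 dTgDox libraries left of the 6 Ct libraries, 1 point per library and the group mean as a line. In FPKM, Fos lies between 4.73 and 5.07 in dTgDox and between 11.6 and 42.1 in Ct, and Jun lies between 22.6 and 32.4 in dTgDox and between 11.3 and 18.0 in Ct.

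Of 28 genes of MAP kinase feedback and the early stress response 10 were lower and 1 higher, with a median of -0.23, and 6 were lower without dTgDox replicate 1 or 3. Dusp1, a phosphatase that switches MAP kinases off, had 7.29, 8.85 and 6.56 FPKM in dTgDox, against 21.2 to 36.0 FPKM (median 23.7) in Ct, a difference of -1.71 (SE 0.18, limma adjusted p = 0.00026). Dusp14, a phosphatase of the same family, had 18.1, 17.7 and 16.9 FPKM in dTgDox, against 44.8 to 66.0 FPKM in Ct, a difference of -1.60. Trib1, a pseudokinase, differed by -1.34 and Arl4d, a small GTPase, by -1.17. Of 28 late-response genes 6 were lower and 2 higher, and the lower count was 2 without dTgDox replicate 1 or 3 and 3 without Ct replicate 2 or 3. The late list stood at 3.96 to 4.05 in dTgDox and, without overlap, at 4.16 to 4.40 in dTg replicates 2 to 7. Rgs4, a regulator of G-protein signalling, differed by -1.55, and Nptx1, a synaptic pentraxin, by 0.83.

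CREB, a factor that neuronal firing activates, binds TGACGTCA or the shorter TGACG. Promoters of 4 genes that were lower are shown, 250 bases before to 50 after the RefSeq start used for each (GRCm38.p6). At Nr4a1 and Dusp1 that start lies inside the span that GENCODE gives the gene. Letters are in lower case, with TGACG, its reverse complement CGTCA and the overlapping TGACGTCA in capitals. Fos lies at chr12:85473640-85473939 (plus strand), Npas4 at chr19:4989922-4990221 (minus strand), Nr4a1 at chr15:101266596-101266895 (plus strand) and Dusp1 at chr17:26508423-26508722 (minus strand).
Fos: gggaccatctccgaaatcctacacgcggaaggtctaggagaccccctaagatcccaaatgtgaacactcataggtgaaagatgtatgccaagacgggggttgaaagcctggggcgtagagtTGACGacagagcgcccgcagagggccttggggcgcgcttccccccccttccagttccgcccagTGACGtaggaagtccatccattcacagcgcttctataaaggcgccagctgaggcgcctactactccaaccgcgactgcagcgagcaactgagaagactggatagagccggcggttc
Npas4: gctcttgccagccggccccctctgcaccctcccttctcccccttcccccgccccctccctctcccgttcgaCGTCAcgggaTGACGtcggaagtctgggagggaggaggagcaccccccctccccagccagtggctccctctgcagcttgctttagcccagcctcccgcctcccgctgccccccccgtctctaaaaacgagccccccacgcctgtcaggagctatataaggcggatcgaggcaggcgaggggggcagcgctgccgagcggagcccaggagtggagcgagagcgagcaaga
Nr4a1: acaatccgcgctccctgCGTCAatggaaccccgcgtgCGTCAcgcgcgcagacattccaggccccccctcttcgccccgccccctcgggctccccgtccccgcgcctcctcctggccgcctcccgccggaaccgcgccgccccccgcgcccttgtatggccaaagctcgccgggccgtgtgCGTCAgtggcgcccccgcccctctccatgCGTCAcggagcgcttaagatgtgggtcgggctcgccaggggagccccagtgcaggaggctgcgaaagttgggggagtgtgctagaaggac
Dusp1: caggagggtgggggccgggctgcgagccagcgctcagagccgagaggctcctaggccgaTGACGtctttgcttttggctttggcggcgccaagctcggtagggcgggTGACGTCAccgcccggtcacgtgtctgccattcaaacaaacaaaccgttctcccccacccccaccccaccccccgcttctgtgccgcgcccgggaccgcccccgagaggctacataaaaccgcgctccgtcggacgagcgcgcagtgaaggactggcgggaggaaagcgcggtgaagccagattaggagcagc
Counting both strands, TGACG stood 2 times in the Fos window, 2 times in that of Npas4, 4 times in that of Nr4a1 and 3 times in that of Dusp1. TGACGTCA, which holds TGACG on both strands, stood once in Dusp1 alone among these 4. Over all 27025 genes with a window, 23.05% held TGACG on either strand and 2.03% held TGACGTCA, and among the 11861 of them that were tested the shares were 33.9% and 3.42%. Of the immediate-early genes with a window, 8 of the 9 lower ones held TGACG, as did 1 of the 2 higher ones and 6 of the 9 that did not pass. In the MAP kinase list these were 5 of the 8 lower genes and 9 of the 16 that did not pass. A match describes the letters of the window and is not a measured site.

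Channel and receptor genes that set excitability moved in both directions. Of 27 genes of voltage-gated sodium and calcium channels and HCN pacemaker channels 11 were lower and 2 higher, with a median of -0.34. The lower count was 5 without dTgDox replicate 2 and 7 without dTgDox replicate 1. Scn1a, the main sodium channel of fast-spiking interneurons, had 15.9, 17.1 and 16.5 FPKM in dTgDox, against 21.6 to 33.3 FPKM (median 27.7) in Ct, a difference of -0.70 (limma adjusted p = 0.0078). Cacnb4, a calcium channel beta subunit, differed by -1.01, Cacna1i, a T-type calcium channel, by -0.94, and Scn3b, a sodium channel beta subunit, by 0.78. Of 12 GABA-A receptor subunit genes tested (of 14) 5 were lower and 2 higher, and 3 were lower without dTgDox replicate 1. Gabra5, a subunit of extrasynaptic receptors known for its high level in hippocampal pyramidal cells, had 57.6, 61.0 and 66.1 FPKM in dTgDox, against 18.2 to 32.1 FPKM in Ct, a difference of 1.32 (SE 0.17). Gabra2, a synaptic subunit, had 72.4, 53.5 and 77.4 FPKM in dTgDox, against 12.2 to 33.2 FPKM in Ct, a difference of 1.67. Gabrd, the delta subunit of extrasynaptic receptors, had 10.8, 16.3 and 10.5 FPKM in dTgDox, against 22.3 to 42.5 FPKM in Ct, a difference of -1.30. Gabra3 differed by -0.97. No group overlapped the other at these 4 subunits.

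Among cholinergic genes, the pathway named in the title of the series, 5 of 20 tested (of 30 listed) were higher and 1 was lower, with a median of -0.04. The higher count was 2 without dTgDox replicate 1 or 2 and 3 without replicate 3. Chrm5, a muscarinic receptor, had 1.57, 0.788 and 1.75 FPKM in dTgDox, against 0.0422 to 0.317 FPKM (median 0.137) in Ct, a difference of 1.47 (SE 0.20, limma adjusted p = 0.0013). Chrna7, a nicotinic receptor subunit, had 11.1, 8.00 and 13.03 FPKM in dTgDox, against 4.91 to 7.30 FPKM in Ct, a difference of 0.76 (SE 0.16). It lost its call without dTgDox replicate 1 or 3. Chrm4, a muscarinic receptor of striatal neurons, had 7.11, 7.81 and 7.95 FPKM in dTgDox, against 11.3 to 20.2 FPKM in Ct, a difference of -0.95. Ache, acetylcholinesterase, which breaks acetylcholine down, had 24.3, 32.5 and 24.99 FPKM in dTgDox, against 24.4 to 37.2 FPKM in Ct, and did not pass (-0.11, SE 0.14). As lists, the cholinergic genes lay within the Ct range, with levels of 3.06 to 3.10 in dTgDox and 2.98 to 3.25 in Ct, and so did the GABA-A subunits, with 4.90 to 5.02 in dTgDox and 4.85 to 5.17 in Ct. The activity, channel and receptor genes that passed differed in the libraries with high hippocampal markers and low striatal markers, and the part of those differences in them was not tested.

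Stress and metabolic lists differed in size. Of 35 genes of the ATF4 amino-acid stress response 11 were lower and 1 higher, with a median of -0.22, and 2 were lower without dTgDox replicate 1 or 3 and 7 without Ct replicate 2, 4 or 6. Atf4, the factor itself, differed by -0.43 and lost its call without dTgDox replicate 1 or 3, and Cebpb, a leucine-zipper factor, by 0.97. Of 21 glucocorticoid-induced genes 6 were higher and 4 lower, and 2 were lower without any 1 of the dTgDox libraries. Fkbp5, a chaperone partner of the steroid receptors, had 18.6, 17.2 and 16.9 FPKM in dTgDox, against 8.29 to 11.2 FPKM in Ct, a difference of 0.81 (SE 0.10). Cebpd, a relative of Cebpb, differed by 1.43. Of 19 circadian clock genes 7 were lower and 0 higher (1 at an unadjusted limma p under 0.05), with a median of -0.33, and 1, 3 and 2 were lower without dTgDox replicates 1, 2 and 3, and 4 without Ct replicate 3 or 6. Per1, a repressor of the clock that firing also induces, differed by -0.87 and lost its call without dTgDox replicate 1 or 2. Of 27 heat shock genes 4 were higher and 2 lower, and between 0 and 3 were higher with 1 library left out, 0 of them without Ct replicate 4 or 5 or dTgDox replicate 1 or 3. With no library left out, 22.2% of them passed, against 18.6% over all genes tested. Cytosolic ribosomal protein genes were higher in 70 of 80 cases, with a median of 0.35 and list levels of 8.13 to 8.16 in dTgDox and 7.63 to 7.90 in Ct. Rpl21, of the large subunit, had 369, 362 and 358 FPKM in dTgDox, against 250 to 286 FPKM in Ct, a difference of 0.44 (SE 0.05). The ribosomal count was 47, 47 and 49 without dTgDox replicates 1, 2 and 3, and these genes share reads with many processed pseudogenes, so single values are uncertain. Of 79 nuclear genes of oxidative phosphorylation 19 were higher and 2 lower, a share of 26.6% against 18.6% over all genes tested. The higher count was 4, 5 and 6 without dTgDox replicates 2, 1 and 3, 9 without Ct replicate 4 and 12 without Ct replicate 1 or 5.

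Genes on chromosome 12, where a Camk2a driver line is reported to be inserted, were examined because both groups carry a CamK driver. Of 5 such genes Esyt2, a lipid-transfer protein, was higher, with 12.0, 10.1 and 12.0 FPKM in dTgDox against 5.16 to 9.99 FPKM in Ct, a difference of 0.83 (SE 0.18). Vipr2, a receptor for the peptide of Vip, was lower, with 0.268, 0.217 and 0.838 FPKM in dTgDox against 1.37 to 12.8 FPKM in Ct, a difference of -2.64 (SE 0.60). The call of Esyt2 was lost without dTgDox replicate 1 or 3, and that of Vipr2 without dTgDox replicate 1 or 2. Of 1080 tested genes with the 8mer AAAGGGAA, the match to the miR-211 seed followed by A, in the longest annotated 3′UTR, 83 (7.69%) were higher in dTgDox and 163 (15.1%) lower, with a median of -0.05. Of 8578 tested genes without the 6mer core AAGGGA, 868 (10.1%) were higher and 769 (8.97%) lower, with a median of 0.00. The median 3′UTR was 2786.5 bases long with the site and 867.5 bases without the core, and the part of that difference in the counts was not tested.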

How the data were processed

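Polyadenylated RNA of frontal cortex was read from 1 end on a NextSeq instrument, per the labels' protocols, on 2 flow cells to which libraries are not assigned. The submitters' processing notes name TopHat2 and DESeq. The sources used here do not give their versions, the genome build, the counting or its use of strand. The deposited values are taken as FPKM, 1 value for each of 46073 Ensembl genes per library. GENCODE M21 (GRCm38) gave symbols and coordinates to 45225 of them. Depth was estimated from the step that 1 read makes in single-exon genes.

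From these values, log2(FPKM + 0.5) was fitted with limma 3.58.1 in R 4.3.3 on the 9 libraries, keeping genes that reached 0.5 FPKM in 3 or more of them. The fit had 1 mean per group and empirical Bayes moderation with trend and robust settings. P-values are two-sided and adjusted by the Benjamini-Hochberg method over 18426 genes, with a threshold of 0.05. The fit was tested on simulated data.

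The samples, lists and tests were chosen with earlier results of these data known. Named were the 12 highest and 12 lowest differences among genes that passed with an informative symbol and a mean log2 level of 1 or more, the 4 list members with the smallest p, and genes named for their role (App, Prnp, their neighbours and families, Mir211, Trpm1, Camk2a, Chrna7, Ache, Gfap, Fos, Egr1, Arc, Npas4 and Bdnf). Other list members named were chosen after their values were seen. Alternatives were other pseudocounts, filters, scalings, weights and sets of libraries, and leaving out each library in turn. The files labelled dTg replicate 1 and NTg replicate 1 are identical, and neither entered the comparison. The other 6 dTg libraries served as values beside it only. Some genes that the naming rule picks are not reported here.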

Additional observations from a re-analysis of the deposited data

Results flagged for a closer look

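In each Ct group of 6, a gene was looked at again where its highest or lowest library lay apart from the other 5 by more than Dixon's critical value allows. This held for 18 of 215 named genes (8.37%), where chance gives about 1 in 20. Ct replicates 1 and 2 were the separate library 5 times each, replicate 3 4 times, replicate 5 2 times and replicates 4 and 6 once each.

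In Ct replicate 1, Jun was high at 18.0 FPKM, against 11.3 to 13.3 FPKM in the other Ct libraries, and Car8, a carbonic anhydrase relative, was low at 2.51 FPKM. The mitochondrial genes mt-Nd6 (3809 FPKM), mt-Co1 (14600.0 FPKM) and mt-Nd4 (4733 FPKM) were also low in that library. In Ct replicate 2, Golm1 was high at 9.36 FPKM and Ndufb2 at 147 FPKM. The driver-site genes Esyt2 (9.99 FPKM), Ncapg2 (0.887 FPKM) and Ptprn2 (90.3 FPKM) were high in the same library, against 5.16 to 5.97, 0.522 to 0.645 and 38.4 to 49.5 FPKM in the other Ct libraries. In Ct replicate 3, Tbr1 was high at 60.7 FPKM, Psen2 at 11.9 FPKM and Ighg2c at 4.99 FPKM, and Mrpl23 was low at 32.1 FPKM. In Ct replicate 4, C1ql2 was high at 1.02 FPKM. In Ct replicate 5, Lhx9 was high at 1.41 FPKM and Cldn10 at 16.8 FPKM. In Ct replicate 6, Ttr was high at 86.7 FPKM, against 0.661 to 3.56 FPKM in the other Ct libraries.

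Mir211 was read in libraries outside the comparison, at 21.6 FPKM in dTg replicate 2 and 24.8 FPKM in dTg replicate 5, while it was listed at 0 in all dTgDox and Ct libraries.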

How the results depend on the processing

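No named gene that passed changed direction in any of the 22 alternative settings that tested it, and no main result did. The direction of named genes that did not pass was not followed. With all 16 distinct libraries sharing 1 estimate of spread, 1540 genes passed (872 higher, 668 lower), with 6 dentate markers and 8 plaque-associated microglia genes higher, and 4 upper-layer and 3 immediate-early genes lower. With 15 libraries, dTg replicate 1 left out, 3809 genes passed, and 8 immediate-early genes were lower. Those fits differ by that library alone. Its cerebellar marker list stood at 7.99, against 3.30 to 3.87 in dTg replicates 2 to 7. What in that library changed the counts was not tested. The replicate block, pairing dTgDox and Ct libraries of the same number, left 964 genes (467 higher, 497 lower), 7 dentate markers and 5 plaque-associated microglia genes higher, App at 1.06 (adjusted p = 0.052) and Prnp at 1.62 (adjusted p = 0.028). Residuals of same-numbered libraries correlated at -0.01, 0.04 and -0.02. Such values over all genes cannot exclude a shared litter or day, which the labels do not give. Without the 3 olfactory-rich or the 2 striatum-rich Ct libraries, alternatives chosen after seeing the data, 7 and 9 plaque-associated microglia genes were higher. Leaving out 1 library at a time, with fewer samples, gave 1783 to 3119 genes (887 to 1599 higher, 896 to 1559 lower), 16 to 17 CA markers, 10 to 13 dentate markers and 6 to 17 plaque-associated microglia genes higher. It gave 6 to 10 upper-layer and 11 to 15 immediate-early genes lower, App at 0.97 to 1.22 and Prnp at 1.52 to 1.83. Quality weights gave 4454 genes. Of 147 named genes that passed, 56 passed in every setting that tested them and 67 in all such settings but the block. Other pseudocounts, filters and scalings kept each main count within 1.5 times. Depth is an estimate, so no counting interval was given for low genes.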

Other observations

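Several genes not described above differed as clearly as the hippocampal markers. Arpp21, a phosphoprotein of neurons that dopamine signalling regulates, had 42.3, 52.9 and 60.1 FPKM in dTgDox, against 158 to 272 FPKM (median 183) in Ct, a difference of -1.94 (SE 0.19, limma adjusted p = 0.00024). Arpp19, a phosphatase inhibitor, had 90.3, 115 and 85.0 FPKM in dTgDox, against 235 to 474 FPKM in Ct, a difference of -1.84. Gpr161, a receptor of primary cilia in the Hedgehog pathway, had 11.8, 11.7 and 10.7 FPKM in dTgDox, against 0.985 to 1.87 FPKM in Ct, a difference of 2.64 (SE 0.14). Tnnc1, the slow and cardiac troponin C, had 2.07, 2.37 and 1.57 FPKM in dTgDox, against 14.2 to 28.3 FPKM in Ct, a difference of -2.91 (SE 0.20). At each of these genes the groups did not overlap. Arpp21, Arpp19 and Gpr161 were chosen after their values were seen.

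Some genes were near 0 in 1 group and present in the other. Counted with limits chosen after the values were seen, 9 genes lay under 0.1 FPKM in all 6 Ct libraries and above 0.5 FPKM in all 3 dTgDox libraries, and 3 genes the reverse. Hormad1, a meiotic chromosome protein, had 1.89, 3.91 and 1.92 FPKM in dTgDox and was listed at 0 in all 6 Ct libraries. Ccr6, a chemokine receptor, averaged 1.56 ± 0.540 FPKM in dTgDox (SD, n = 3) and 0.0297 ± 0.0255 FPKM in Ct (SD, n = 6). Krt2, a keratin, averaged 1.99 ± 0.920 FPKM in dTgDox (SD, n = 3) and 0.0363 ± 0.0224 FPKM in Ct (SD, n = 6). Nxf7, a relative of a nuclear RNA export factor, averaged 0.0644 ± 0.0153 FPKM in dTgDox (SD, n = 3) and 1.11 ± 0.512 FPKM in Ct (SD, n = 6). The other 8 are pseudogenes or small nuclear RNA genes, whose reads are uncertain. Gm13394, a processed pseudogene, had 226, 226 and 217 FPKM in dTgDox, against 60.4 to 64.6 FPKM in Ct. The mitochondrial gene mt-Co1 was listed at 0 in dTgDox replicate 3 and at 17988 and 16842 FPKM in dTgDox replicates 1 and 2.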
